A study of Homo sapiens with 4 samples.

Results

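HEK293 cells come from human embryonic kidney, were transformed with adenovirus DNA, and serve as a common host for cloned receptors. The 10 genes of the adenylyl cyclase family, ADCY1 to ADCY10, were followed in 4 arrays of these cells, chosen by name through the RefSeq accession that each probe carries. All 10 were matched, among 17217 named genes, and each had 1 target of 3 probes, which gave 30 of 71998 probes. The arrays were biological replicates of 1 untreated group, grown in DMEM with fetal bovine serum. The study's methods describe a plate and an RNA extraction of its own for each replicate. The series holds no treated group and no other cell line, and the line stands as 1 model grown to confluence.

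Adenylyl cyclases make cyclic AMP from ATP. ADCY1 to ADCY9 code for membrane enzymes that the G protein alpha subunit Gs turns on and that differ in how calcium, calmodulin, Gi and G beta-gamma act on them, while ADCY10 codes for a soluble enzyme driven by bicarbonate. Because receptors coupled to Gs or Gi are often assayed in this line through cyclic AMP, the question here was which of these enzymes the cells hold message for.

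Messages of ADCY6, ADCY9, ADCY7, ADCY1 and ADCY3 were detected, and those of ADCY10, ADCY4, ADCY5, ADCY2 and ADCY8 were not. Detection followed the study's rule. Genes of seminal proteins, which the line was thought not to transcribe, set a baseline for every array, at 2 SD above their mean. The distance of a gene is its log2 level minus that baseline, and a gene counted as detected if its 4 distances averaged above 0. The baseline was 10.10 ± 0.52 log2 units (SD, n = 4), and its values on replicates 1 to 4 were 9.47, 9.94, 10.69 and 10.32. Of the 10 cyclases 5 were detected, against 52.7% of all named genes, so that the share lay near the background. The same 5 lay above the baseline on all 4 arrays, against 45.0% of all genes, and the same 5 passed a one-sided limma test of the distances against 0 (adjusted p under 0.05 over all genes), against 45.9% of all genes. That test gave every gene the same standard error, so it amounted to a higher cutoff on the mean distance. No cyclase was above the baseline on some arrays and below it on others. The median distance of the 10 cyclases was -0.28 log2 units, which falls in the gap between detected and undetected members, and that of all genes was 0.26.

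The arrays differed in their baseline more than in the typical cyclase. The median SD of a cyclase's level over the 4 arrays was 0.39 log2 units, against 0.42 for all genes, and the median SD of its distance was 0.57, against 0.63. All 5 widely used reference genes examined were detected, as were 6 of 7 marker genes of the line, PAX2 being the exception at -1.63 ± 0.74 log2 units (SD, n = 4). Of the 6, NEFM was above the baseline on only 2 of 4 arrays, at 0.66 ± 3.08 (SD, n = 4, limma adjusted p = 0.064). The other 5 lay above it on all 4 arrays. None of 6 markers of blood, liver, pancreatic islet, heart or olfactory neurons was detected, with mean distances of -3.56 to -2.53. In RNA of whole cultures, fewer cells with a message and less message per cell cannot be told apart. The number of arrays limits the precision.

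**Figure D1:**
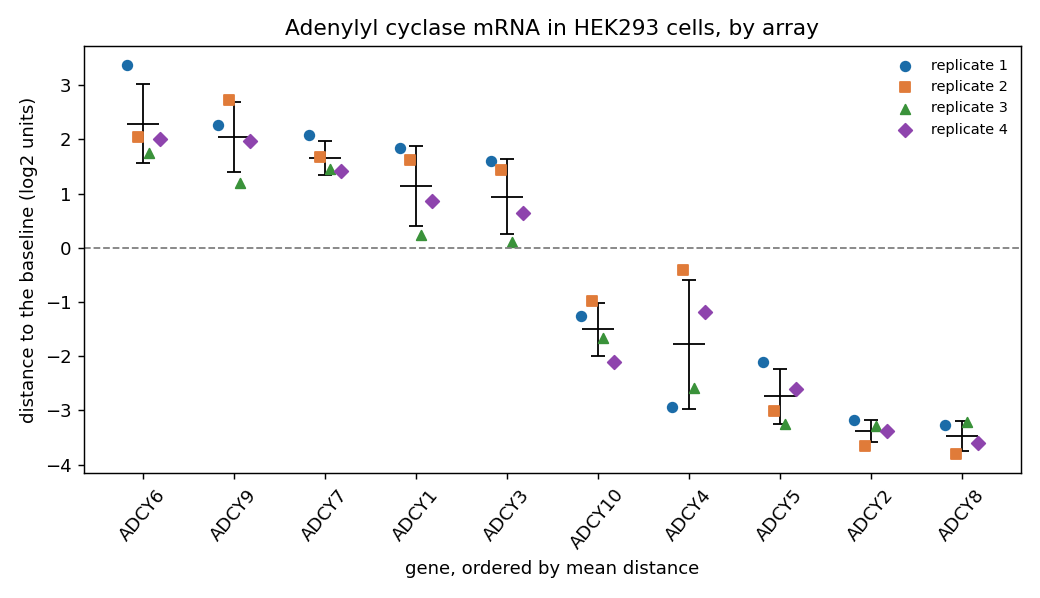
Distance to the baseline (y axis, log2 units) of each adenylyl cyclase gene (x axis) on replicates 1 to 4 (coloured symbols), with the mean (horizontal mark) and SD over the 4 arrays (bars). The 5 detected genes lie above the dashed line on every array and the other 5 below it, and ADCY4 has the widest spread.

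The detected and undetected genes were separated by a gap. The lowest mean among the detected genes was 0.94 log2 units (ADCY3) and the highest among the others was -1.51 (ADCY10), and on single arrays the detected genes ran from 0.11 to 3.37 and the others from -3.80 to -0.42. Measured in SDs of the control genes above their mean, ADCY6 stood at 3.78, ADCY9 at 3.57, ADCY7 at 3.27, ADCY1 at 2.89 and ADCY3 at 2.74, where the baseline stands at 2. ADCY10 stood at 0.86, ADCY4 at 0.63, ADCY5 at -0.07, ADCY2 at -0.57 and ADCY8 at -0.64. The last 3 were therefore at the mean of the control genes or under it. That mean includes AFG2A and SPATA13, the highest controls, at 9.97 and 9.72 log2 units. ADCY5, at a mean level of 7.36, lay above each of the others, which averaged 6.53 to 7.25. Each probe has its own affinity, so the order of distances is not an order of message abundance.

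**Figure D2:**
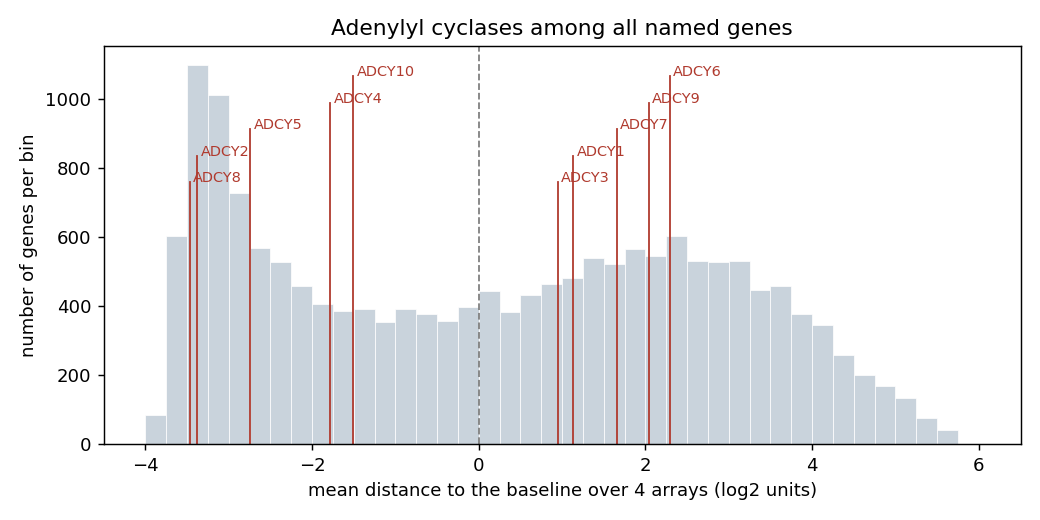
Number of genes (y axis) by distance averaged over the 4 arrays (x axis, log2 units above the baseline, bins of 0.25) for all 17217 named genes, with the 10 cyclases as red lines at their means. ADCY2 and ADCY8 fall in the peak at low distances, and ADCY6 has the highest mean of the family at 2.29, with 73.3% of genes below it.

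The upstream sequences of 4 members are printed to set the detection calls beside the start sites: 2 detected genes whose windows differ widely in CpG content (ADCY3 and ADCY7), an undetected gene rich in CpG (ADCY2), and the gene that varied most between arrays (ADCY4). Each holds the 250 bases before the annotated start in the RefSeq promoter table of build GRCh38.p14, written 5′ to 3′ in the direction of the gene. Capitals mark the GC box letters GGGCGG or, on the other strand, CCGCCC. The windows are ADCY3 at chr2:24920238-24920487 (minus strand), ADCY7 at chr16:50266301-50266550 (plus strand), ADCY2 at chr5:7395888-7396137 (plus strand) and ADCY4 at chr14:24335072-24335321 (minus strand).
ADCY3: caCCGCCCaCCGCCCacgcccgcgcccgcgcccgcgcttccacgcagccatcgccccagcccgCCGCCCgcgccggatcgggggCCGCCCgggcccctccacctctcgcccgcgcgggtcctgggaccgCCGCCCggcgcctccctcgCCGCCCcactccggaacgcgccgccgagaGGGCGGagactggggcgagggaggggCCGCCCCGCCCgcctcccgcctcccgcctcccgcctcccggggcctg
ADCY7: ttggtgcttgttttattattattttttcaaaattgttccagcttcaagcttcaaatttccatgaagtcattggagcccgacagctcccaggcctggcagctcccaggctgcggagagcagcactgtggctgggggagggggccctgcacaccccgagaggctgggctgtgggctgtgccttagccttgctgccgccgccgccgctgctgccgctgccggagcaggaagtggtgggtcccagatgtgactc
ADCY2: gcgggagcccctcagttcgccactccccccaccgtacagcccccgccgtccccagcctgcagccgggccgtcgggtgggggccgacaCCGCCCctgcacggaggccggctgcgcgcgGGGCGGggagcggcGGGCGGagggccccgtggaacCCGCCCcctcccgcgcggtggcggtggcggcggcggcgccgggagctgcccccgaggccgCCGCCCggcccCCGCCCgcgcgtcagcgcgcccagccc
ADCY4: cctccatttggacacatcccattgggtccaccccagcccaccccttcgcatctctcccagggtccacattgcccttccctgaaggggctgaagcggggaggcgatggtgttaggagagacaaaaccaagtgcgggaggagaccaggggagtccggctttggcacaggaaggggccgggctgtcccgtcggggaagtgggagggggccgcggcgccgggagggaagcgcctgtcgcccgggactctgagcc

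The table gave windows for 7 of the 10 genes, 10 windows in all, and none for ADCY6, ADCY8 and ADCY9. Among the detected genes, CpG counts were 43 in the ADCY3 window above and 35 in its second window, 16 and 36 in the pair of ADCY1 windows and 9 in that of ADCY7. Among the others they were 40 for ADCY2, 15 for ADCY4, 27 and 2 for the pair of ADCY5 windows and 5 for ADCY10. The median over 35116 windows of the same length was 11. GC boxes (GGGCGG on either strand, overlaps counted) numbered 9, 0, 6 and 0 in the printed windows of ADCY3, ADCY7, ADCY2 and ADCY4, and 42.6% of all windows held at least 1. None of the 10 windows held the cyclic AMP response element TGACGTCA, which 1.65% of all windows held, or TATAAA on either strand, which 10.7% held. The shorter form of the response element, TGACG on either strand, lay in 4 of the 10, both windows of ADCY1, that of ADCY2 and the second of ADCY3, and in 21.2% of all windows. The ADCY1 windows overlap, and both hold the same site. These letters describe the windows, and no factor binding was measured.

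Of the membrane cyclases that calcium and calmodulin stimulate, ADCY1 and ADCY3 were detected and ADCY8 was not. ADCY1, known from nerve tissue, had distances of 1.84, 1.61, 0.23 and 0.86 log2 units on replicates 1 to 4, with a mean of 1.14 ± 0.73 (SD, n = 4, limma adjusted p = 0.00148). It was higher on replicates 1 and 2 than on replicates 3 and 4. ADCY3, the cyclase of olfactory neurons and of primary cilia, had distances of 1.60, 1.43, 0.11 and 0.63, with a mean of 0.94 ± 0.70 (SD, n = 4, limma adjusted p = 0.00826). Of its 3 probes, 1 was above the baseline on all arrays, and probe 3 averaged below it, at -0.096 log2 units. On replicate 3 only probe 2, at 11.42, passed the baseline of 10.69. Probes 1 and 3 read 10.61 and 10.04 there. The arrays took the same order for ADCY1 and ADCY3, the reverse of the order of their baselines. ADCY6 took it too, and ADCY7 and ADCY9 did not. Before subtraction ADCY1 and ADCY3 were both highest on replicate 2, at 11.55 and 11.37 log2 units, and lowest on replicate 3. ADCY1 was above ADCY3 on each array, by 0.19 ± 0.06 log2 units (SD, n = 4).

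ADCY1 and ADCY3 were the detected cyclases nearest to the baseline, and on replicate 3, which had the highest baseline, both were within 0.23 log2 units of it. Before subtraction their levels were steady, with SDs of 0.26 and 0.24 log2 units, smaller than those of most genes, since 22.2% and 18.5% of genes had a smaller SD. On replicates 3 and 4 alone, which share 1 distribution of values, the distances were 0.55 for ADCY1 (limma adjusted p = 0.16) and 0.37 for ADCY3 (limma adjusted p = 0.32). Without replicate 2 that of ADCY3 was 0.78 (limma adjusted p = 0.083). Over all alternatives the adjusted p of ADCY1 ranged from 2.4e-17 to 1.0 and that of ADCY3 from 2.7e-15 to 1.0, the height of the baseline giving both ends.

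ADCY8, known as a calcium-stimulated cyclase of the brain, was the member farthest below the baseline. Its distances were -3.27, -3.80, -3.21 and -3.60 log2 units on replicates 1 to 4, with a mean of -3.47 ± 0.28 (SD, n = 4), and 4.70% of all genes lay lower. Its probes read between 5.55 and 8.41 log2 units. The highest of these, on replicate 3, belonged to 1 probe that read 5.80 to 6.86 on the other arrays.

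Of the cyclases that G beta-gamma stimulates together with Gs, ADCY7 was detected and ADCY2 and ADCY4 were not. ADCY7, known from blood cells and many other tissues, had distances of 2.08, 1.67, 1.45 and 1.42 log2 units on replicates 1 to 4, with a mean of 1.66 ± 0.31 (SD, n = 4, limma adjusted p = 3.56e-06). This was the smallest SD of distance among the detected members. It was not the smallest SD of level, at 0.267 log2 units against 0.262 for ADCY1 and 0.239 for ADCY3. Of its 3 probes, 2 were above the baseline on all arrays and the other on 3 of 4. ADCY2, a cyclase of the brain, stood at -3.18, -3.66, -3.29 and -3.37 log2 units, with a mean of -3.38 ± 0.20 (SD, n = 4), and none of its probes reached the baseline on any array.

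ADCY4, a relative of ADCY2 and ADCY7 known from vessel walls and other tissues, differed most between replicates. Its levels before subtraction were 6.53, 9.52, 8.10 and 9.14 log2 units on replicates 1 to 4, a range of 2.99 log2 units or 7.93-fold. The SD of 1.34 log2 units was larger than that of 98.7% of all genes, and the next largest SD in the family was 0.62, of ADCY8. Its distances were -2.94, -0.42, -2.59 and -1.18, with a mean of -1.78 ± 1.18 (SD, n = 4), below the baseline on every array.

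All 3 probes of ADCY4 took part in this spread. The lower of replicates 2 and 4 was above the higher of replicates 1 and 3 for each probe, at 8.30 against 7.39 for probe 1, 9.36 against 8.57 for probe 2 and 9.17 against 8.10 for probe 3. Averaged over replicates 2 and 4 the distance was -0.80 log2 units, against -2.76 over replicates 1 and 3. On replicate 2 a single probe, at 10.05, passed the baseline of 9.94. Of the marker genes of the line, NEFM, a neurofilament gene, was singled out after its values were seen because it split the arrays the same way in the opposite direction. It stood at 4.10, -1.62, 2.40 and -2.24 log2 units on replicates 1 to 4. Its part in the result was not tested. Some pathway genes read below, among them GNAL, PTGER2 and ADORA2B, split the arrays in the direction of ADCY4, and many did not. The labels give no difference between these replicates, and the grouping was seen in the values, so it was given no test.

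**Figure D3:**
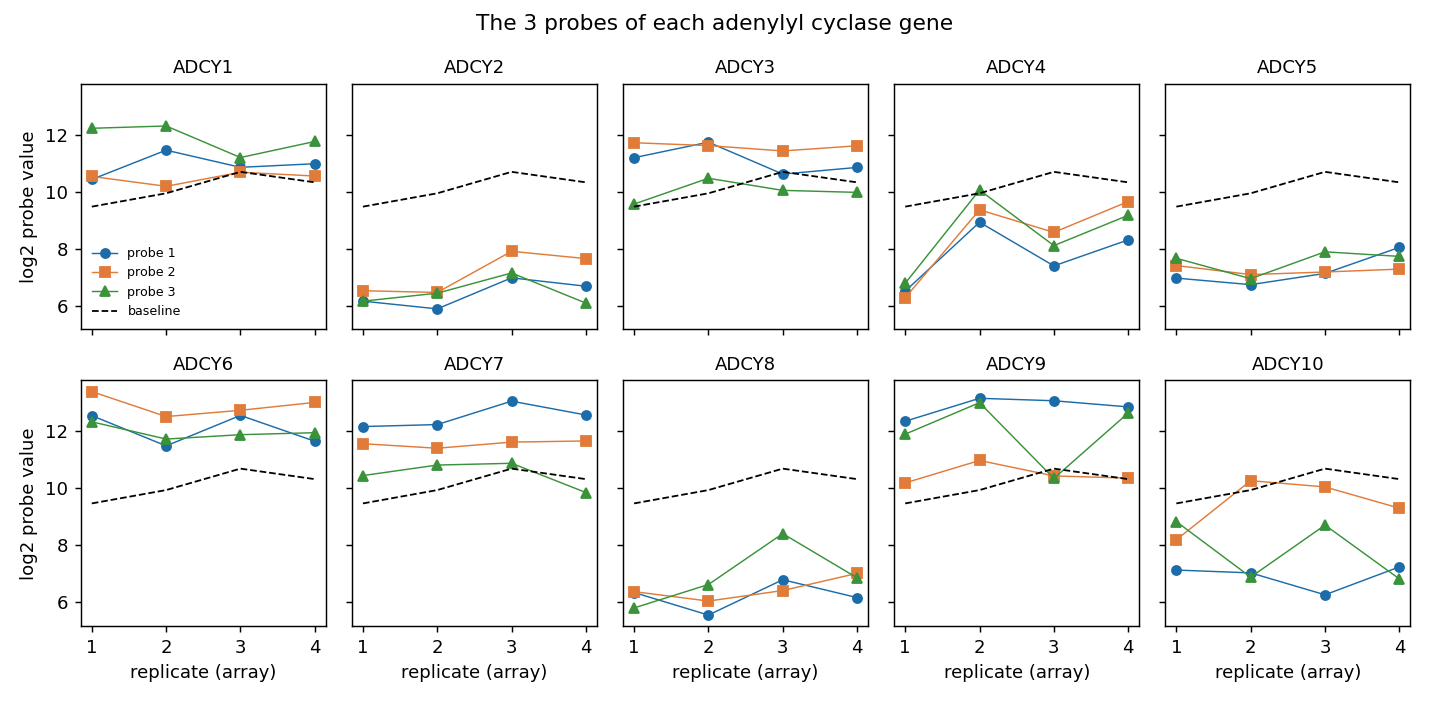
Log2 value (y axis) of each of the 3 probes of every cyclase gene (coloured lines) on replicates 1 to 4 (x axis), with the baseline of each array (dashed). The probes of ADCY4 move together between arrays, whereas those of ADCY10 and the third probe of ADCY9 do not move with their partners.

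Of the pair of cyclases that calcium and Gi inhibit, ADCY6 was detected and ADCY5 was not. ADCY6, a widely expressed cyclase studied in heart and kidney, had distances of 3.37, 2.04, 1.75 and 2.01 log2 units on replicates 1 to 4, with a mean of 2.29 ± 0.73 (SD, n = 4, limma adjusted p = 1.33e-10). Replicate 1, which had the lowest baseline, was high in distance and the others lay close together. Before subtraction the levels were 12.84, 11.98, 12.44 and 12.33. It was the only member with all 3 probes above the baseline on all 4 arrays, the probe values running from 11.49 to 13.39. ADCY5, its closest relative and a cyclase of striatum and heart, stood at -2.10, -3.01, -3.25 and -2.61 log2 units, with a mean of -2.74 ± 0.50 (SD, n = 4), and none of its probes reached the baseline.

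ADCY9, the membrane cyclase that responds only weakly to the diterpene forskolin, was detected with distances of 2.27, 2.72, 1.19 and 1.98 log2 units and a mean of 2.04 ± 0.64 (SD, n = 4, limma adjusted p = 1.12e-08). Replicate 1, at 11.73, had the lowest level before subtraction, but replicate 3, at 11.88, had the lowest distance. On that array 2 of its 3 probes were under the baseline of 10.69, probe 2 at 10.43 and probe 3 at 10.35. Probe 3 read 11.90 to 13.01 on the other arrays, and probe 1 stayed between 12.35 and 13.16 on all 4. With the median of its probes ADCY9 had a mean distance of 2.03 but fell just under the baseline on replicate 3, at -0.011, so that 4 cyclases in place of 5 were above it on all arrays.

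ADCY10, the soluble cyclase, was the undetected member nearest to the baseline. Its distances were -1.26, -0.99, -1.67 and -2.10 log2 units, with a mean of -1.51 ± 0.49 (SD, n = 4). Its probes disagreed. Probe 2 read 8.19, 10.27, 10.05 and 9.30 on replicates 1 to 4 and passed the baseline on replicate 2, and probe 1 read between 6.26 and 7.24. Probe 3 read 8.83, 6.88, 8.71 and 6.82, so it split the arrays as ADCY4 did, in the opposite direction. Probes 1 and 2 did not split them so. The means of the highest and lowest probe were 2.54 log2 units apart, the widest gap in the family. With the median of the probes its distance fell to -2.17.

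Of the 30 probes, 9 lay above the baseline on all 4 arrays, 13 on none and 8 on some. The 9 belonged to the 5 detected genes. Between neighbours in the order of distances, ADCY6 over ADCY9 (0.25 ± 0.76 log2 units), ADCY9 over ADCY7 (0.38 ± 0.56), ADCY10 over ADCY4 (0.28 ± 1.23), ADCY4 over ADCY5 (0.96 ± 1.44) and ADCY2 over ADCY8 (0.09 ± 0.13) did not differ beyond the SD of their difference (n = 4 arrays for each). ADCY7 over ADCY1 (0.52 ± 0.51), ADCY1 over ADCY3, ADCY3 over ADCY10 (2.45 ± 0.48) and ADCY5 over ADCY2 (0.63 ± 0.44) did, and on all 4 arrays. Different probes read the genes of a pair, so these differences are not differences in message amount. With 4 arrays the smallest two-sided p of an exact sign-flip test is 0.125, so no such test was made.

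The calls depended on where zero expression was set. With 3 SD, ADCY1 and ADCY3 fell to -0.18 and -0.37 log2 units, leaving 3 of 10 cyclases detected, against 39.1% of all genes. Of the controls, AFG2A (listed as SPATA5) and SPATA13 averaged 9.97 and 9.72 log2 units against 6.53 to 7.25 for the other 8. Without that pair, ADCY10 stood 0.82 log2 units above the baseline (limma adjusted p = 0.0032) and ADCY4 0.54 (limma adjusted p = 0.066), which made 7 of 10 detected, against 74.0% of all genes. With 364 olfactory receptor genes as controls it was also 7, against 71.4% of all genes, with ADCY10 at 0.58 (limma adjusted p = 0.028) and ADCY4 at 0.30 (limma adjusted p = 0.28). Over all alternatives the adjusted p of ADCY10 ranged from 0.0032 to 1.0 and that of ADCY4 from 0.066 to 1.0. ADCY2, ADCY5 and ADCY8 were below the baseline in each of the 18 alternatives run and ADCY6, ADCY7 and ADCY9 above it in each, with ADCY6 passing the limma threshold in all 18.

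**Figure D4:**
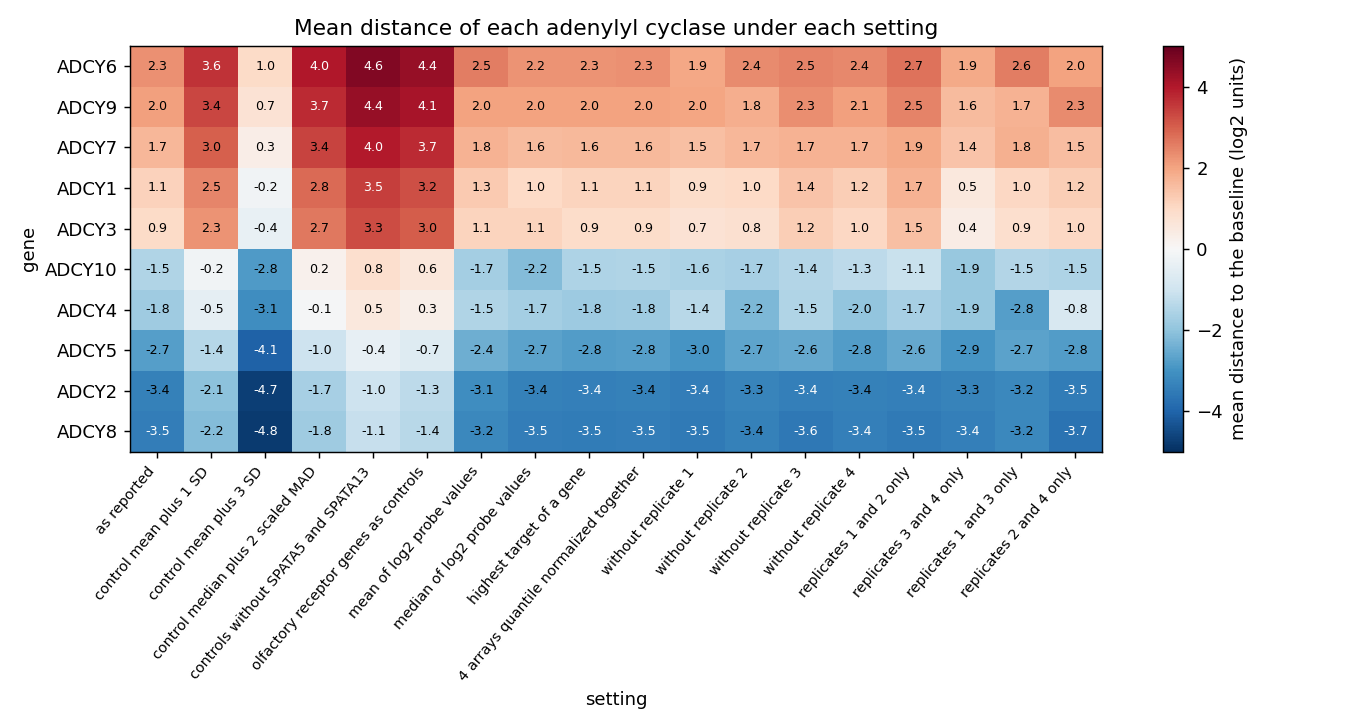
Mean distance to the baseline (colour and printed value, log2 units) of each cyclase gene (rows) under the reported setting and each alternative that can change a distance (columns). ADCY6, ADCY9 and ADCY7 are positive in every column, ADCY5, ADCY2 and ADCY8 negative in every column, and ADCY1, ADCY3, ADCY10 and ADCY4 change sign with the height of the baseline.

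The other genes of the pathway were then read by the same rule, beginning upstream. The shares over all named genes, 52.7% detected and 45.9% past the limma threshold, are the background for each list. Inhibitory alpha subunits (3 of 5) and bicarbonate supply genes (3 of 6) lay near the first share. Of 36 receptors known to couple to Gs, 3 were detected, none of them on all 4 arrays: PTGER2, ADORA2B and ADORA2A, the prostaglandin E2 receptor and a pair of adenosine receptors, named after their values were seen. Their distances were 0.83 ± 1.15, 0.52 ± 0.85 and 0.05 ± 0.20 log2 units (SD, n = 4 for each), and of the list only PTGER2 passed the limma test (adjusted p = 0.021). That test did not use the spread of PTGER2 itself, whose distances on replicates 1 to 4 were 0.33, 2.14, -0.49 and 1.33. The median distance of the list was -2.69, against 0.26 for all genes. The count of 3 moved with the baseline, to 0 with 3 SD, 8 with 1 SD and 10 without AFG2A and SPATA13. The alpha subunits that stimulate membrane cyclases were both detected, GNAS (Gs) at 5.03 ± 0.73 and GNAL (the olfactory form, Golf) at 3.06 ± 0.87 (SD, n = 4 for each).

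Inhibitory alpha subunits were detected in 3 of 5 cases. GNAI2 stood at 3.77 ± 0.54, GNAZ at 2.05 ± 0.64 and GNAI3 at 1.46 ± 0.56 log2 units (SD, n = 4 for each), while GNAI1 was at -0.02 ± 0.92 and GNAO1 at -1.83 ± 0.45 (SD, n = 4 for each). All 5 beta subunits were detected, 4 of them past the limma threshold. Of 9 genes for calmodulin-dependent kinases and the phosphatase calcineurin, which act on some of the cyclases, 6 were detected and passed the test, with CAMK2G and PPP3CB both at 2.87 and CAMK2D at 1.91 log2 units. Of these 6, 5 were above the baseline on all 4 arrays.

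All 7 scaffold and partner genes were detected, 6 of them past the limma threshold. CAP1, a protein named for its binding to yeast cyclase, stood at 4.19 ± 0.73 log2 units, SNAPIN at 4.14 ± 0.59, the A-kinase anchoring proteins AKAP12 at 3.68 ± 0.64 and AKAP9 at 2.93 ± 0.85, and RIC8B, a chaperone of Gs and Golf, at 2.81 ± 0.28 (SD, n = 4 for each). CAP2 stood at 1.29 ± 0.81 and AKAP5, another anchoring protein, at 0.39 ± 0.65 (SD, n = 4 for each, limma adjusted p = 0.27 for AKAP5). Of 6 genes that supply bicarbonate, the activator of ADCY10, 3 were detected and 2 passed the test, the anion exchanger SLC4A2 at 3.72 ± 0.65 and the carbonic anhydrase CA2 at 2.48 ± 0.82 (SD, n = 4 for each).

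Downstream, 6 of 7 protein kinase A genes were detected and passed the test, led by PRKAR1A at 4.20 ± 1.01 and PRKACA at 3.29 ± 0.50 log2 units (SD, n = 4 for each), and PRKACG was not, at -2.76 ± 0.53 (SD, n = 4). Of 10 other genes for proteins that bind cyclic AMP, 2 were detected and passed, POPDC1 at 2.20 ± 0.72 and the exchange factor RAPGEF4 at 1.18 ± 0.65 (SD, n = 4 for each). Phosphodiesterases, which break cyclic AMP down, gave 5 of 16, each past the test, with PDE3B at 3.30 ± 0.50, PDE8A at 2.23 ± 0.65 and PDE4D at 1.89 ± 0.43 (SD, n = 4 for each). All 8 genes of the CREB family and its coactivators, which carry the signal to transcription, were detected and 7 passed, with CRTC2 at 3.78 ± 0.50, EP300 at 2.95 ± 0.72 and ATF1 at 2.85 ± 0.51 (SD, n = 4 for each). Those 7 were above the baseline on all 4 arrays, and the remaining gene on only 2.

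Guanylyl cyclases, the related enzymes that make cyclic GMP, gave 3 of 8 detected genes, each past the limma threshold. They were subunits of the soluble enzyme that nitric oxide activates, GUCY1B1 at 1.94 ± 0.67, GUCY1A1 at 1.20 ± 0.92 and GUCY1A2 at 1.09 ± 0.30 log2 units (SD, n = 4 for each), and the membrane forms in the list lay at -3.41 to -1.59. GUCY1A1 lay above the baseline on 3 of 4 arrays and was named after its values were seen.

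**Figure D5:**
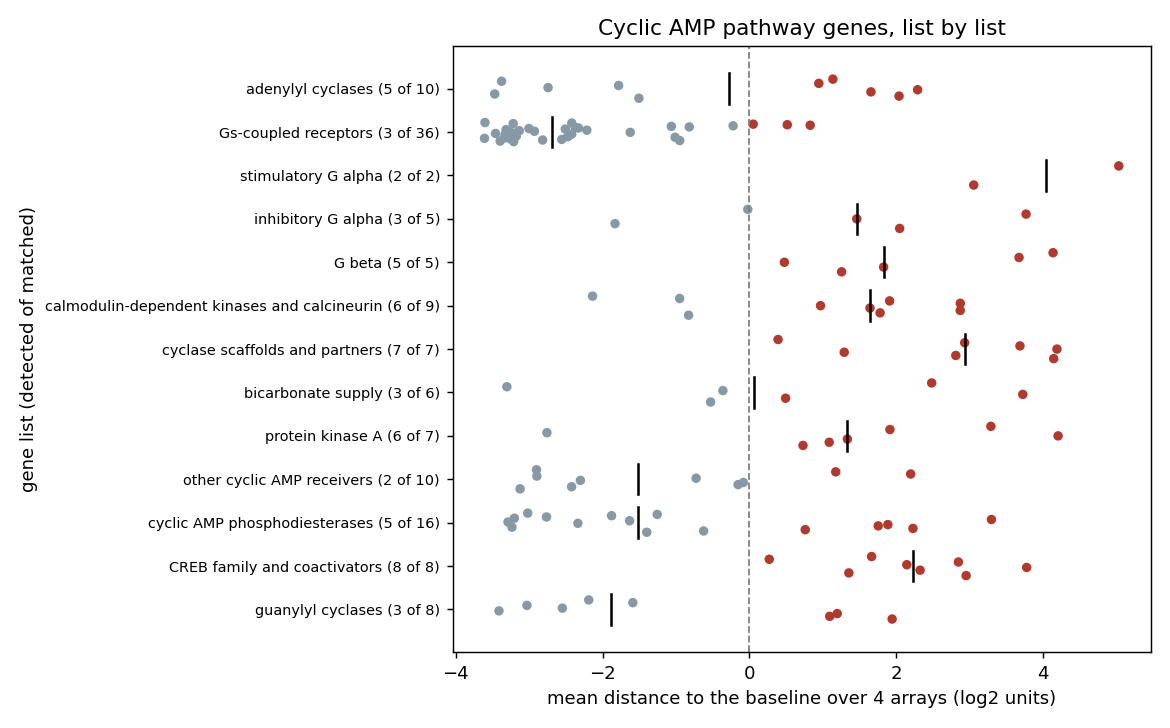
Distance averaged over the 4 arrays (x axis, log2 units above the baseline) of each gene (points, red where detected and grey where not) in the adenylyl cyclase family and in lists of cyclic AMP pathway genes and guanylyl cyclases (rows, with detected of matched genes), the black bar marking the median of a list. Most Gs-coupled receptors lie left of the baseline, whereas the stimulatory G alpha, G beta and scaffold genes lie right of it.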

How the data were processed

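Total RNA of 4 HEK293 cultures was reverse transcribed from oligo(dT), and the Cy3-labelled product was hybridised to single-colour NimbleGen arrays designed on HG18. The table deposited by the authors holds a log2 value for every probe on every array. The submitters' processing notes name RMA with no version, and a background correction is not given in the sources used here. Sorted values of replicates 1 and 2, and of 3 and 4, were within 0.01 of each other at 99.97% and 99.99% of ranks, so that each pair shared 1 distribution. Accessions were matched without versions to RefSeq genes (GRCh38.p14, names only). The 3 probes of a target were averaged on the linear scale before log2, and targets of 1 gene were averaged after it. Of 11 control genes 10 were matched.

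The one-sided test used limma 3.58 in R 4.3 with Benjamini-Hochberg adjustment over all 17217 genes. Its prior degrees of freedom were infinite, so every gene took a standard error of 0.351 log2 units, and since the baseline moves all genes of an array together the tests were not independent. A check of the test on simulated data used independent noise and set the undetected genes below the baseline, not at it. It therefore tells nothing of calls near the baseline or of the shift that an array's genes share. All cyclases were named. Of longer lists the 3 with the largest mean distance were named, provided that every array put them above the baseline, and other genes are marked. Of the Gs-coupled receptors HRH2 was not matched. Members and lists were chosen with earlier results of these data known. The result of 1 further gene list is not reported here.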

Additional observations from a re-analysis of the deposited data

How the results depend on the processing

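With a baseline of 3 SD the cyclases detected numbered 3, those called by limma 1 and those exceeding the baseline on every array 2, and limma called 4922 genes in all. The distances of ADCY1 and ADCY3 turned to -0.18 and -0.37 log2 units, and those of ADCY7 at 0.34 and ADCY9 at 0.72 no longer passed the limma threshold. ADCY10 turned positive, at 0.20 with the control median plus 2 scaled MAD, 0.82 without SPATA5 and SPATA13 and 0.58 with olfactory receptor genes as controls, and ADCY4 turned positive at 0.54 and 0.30 with the last pair of settings. These shifts follow from the height of the baseline. Limma called 3 cyclases on replicates 3 and 4 only, among 6870 of all 17217 genes. On replicates 1 and 3 only it also called 3, among 6885 genes. That setting and replicates 2 and 4 only were chosen after the values were seen. ADCY1 and ADCY3 were the calls lost on replicates 3 and 4, with distances of 0.55 and 0.37. They were also lost on replicates 1 and 3, with 1.04 and 0.86, where the median standard error was 0.634. Replicates 1 and 2 only and replicates 2 and 4 only kept 5 calls each. Leaving out single arrays gave 4 to 5 called cyclases and 5 detected ones each time. Quantile normalization of the 4 arrays together and the highest target of a gene left 5 detected and 5 called. Of the counts under other settings, 81 stayed within 1.5 times the reported one and 6 did not. Of the counts of pathway lists 24 moved by more, all but 2 of them with another baseline. Over the settings the detected Gs-coupled receptors ranged from 0 to 10, phosphodiesterases from 4 to 10, other cyclic AMP receivers from 1 to 6, bicarbonate supply genes from 2 to 5, inhibitory alpha subunits from 3 to 5, beta subunits from 3 to 5 and guanylyl cyclases from 1 to 5. Among the distances of the members 166 kept their direction and side of the threshold, 7 lost significance and 7 changed sign. Raw intensities were not used here, so spot background and saturation are unknown. No paired analysis was possible because the series holds 1 group.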
